A study of Mus musculus with 16 samples.

Results

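The Flt3 locus was described here as a stretch of chromosome 5 that holds the gene Flt3 (gene ID 14255) and 50 kb on either side, chr5:147280741-147450489 in mm10. It held 25 of the 122020 regions of open chromatin found in the whole series. A region is a stretch in which peaks of the 8 deposited peak lists overlapped by at least 1 bp and were merged, and every region that touched the stretch was taken, whatever its values. Flt3 itself spans chr5:147330741-147400489 (69.7 kb) and is read from the minus strand, so that its transcription start lies at 147400489. Positions are given as the distance from that start to the middle of a region, downstream in the direction of transcription or upstream. The regions nearest to the edges on the outside lay 5.56 kb and 9.14 kb away, and each had a peak in 7 of the 8 lists, all but the Flt3-ITD list of set 2. The outermost regions inside it lay 107.7 kb downstream, with a peak in all 8 lists, and 34.9 kb upstream, with a peak in 6.

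Chromatin was profiled by ATAC-seq, in which the transposase Tn5 cuts and tags accessible DNA, in mouse hematopoietic progenitor cells of the multipotent progenitor (MPP) type taken at 21 days of age. Set 1 held wild type, Flt3-ITD, Runx1-het and the double mutant Flt3-ITD/Runx1-het samples, and set 2 held wild type, NUP98-HOXD13, Flt3-ITD and NUP98-HOXD13/Flt3-ITD samples. A group was 2 samples with 1 deposited peak list between them, 8 groups in all, so there was no value per sample and no spread within a group. The sets were told apart by the style of the sample titles, and what else separates them, how the alleles were made, which allele of Flt3 a read came from and how the cells were sorted were not given in the sources used here.

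Flt3 encodes a receptor tyrosine kinase of the family that includes Kit, Csf1r and the Pdgf receptors. It binds the ligand encoded by Flt3l on multipotent and lymphoid-primed progenitors and on dendritic cell progenitors, and it signals through the PI3 kinase, MAP kinase and STAT5 pathways. Flt3-ITD is an internal tandem duplication in the juxtamembrane part of the receptor that lets the kinase signal without ligand. Runx1 encodes a DNA-binding factor of blood stem and progenitor cells, and NUP98-HOXD13 is a fusion of a nuclear pore protein with a homeodomain factor. All are altered in human leukaemia.

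The start of Flt3 and the starts of the other protein-coding genes of the stretch are shown first, because the start of Flt3 was the highest-ranked region of the locus and the other starts ranged from open in all 8 lists to open in none. Each sequence is the RefSeq promoter of GRCm38.p6, the same build as mm10, from 250 bases before the start to 50 after it, 5′ to 3′ on the strand of the gene. Capitals mark matches to the searched motifs named after the sequences.
Flt3, chr5:147400440-147400739, minus strand: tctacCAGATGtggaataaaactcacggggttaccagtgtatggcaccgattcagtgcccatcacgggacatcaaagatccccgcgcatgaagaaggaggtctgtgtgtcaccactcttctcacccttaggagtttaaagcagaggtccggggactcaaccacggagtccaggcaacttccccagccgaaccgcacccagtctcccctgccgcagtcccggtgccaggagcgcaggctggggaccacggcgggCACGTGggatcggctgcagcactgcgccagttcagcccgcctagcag
Pan3, chr5:147429906-147430205, plus strand: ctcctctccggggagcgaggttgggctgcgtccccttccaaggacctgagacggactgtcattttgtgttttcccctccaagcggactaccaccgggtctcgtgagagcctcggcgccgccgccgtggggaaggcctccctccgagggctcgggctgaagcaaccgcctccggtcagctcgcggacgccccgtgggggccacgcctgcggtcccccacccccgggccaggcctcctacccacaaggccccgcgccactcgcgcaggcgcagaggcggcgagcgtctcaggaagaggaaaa
Cdx2, chr5:147307200-147307499, minus strand: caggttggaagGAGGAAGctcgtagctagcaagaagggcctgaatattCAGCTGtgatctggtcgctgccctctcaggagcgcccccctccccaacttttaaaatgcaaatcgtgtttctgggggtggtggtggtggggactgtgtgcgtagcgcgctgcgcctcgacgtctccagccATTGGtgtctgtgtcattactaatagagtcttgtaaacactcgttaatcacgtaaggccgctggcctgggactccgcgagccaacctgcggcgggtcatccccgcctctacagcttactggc
Urad, chr5:147322391-147322690, minus strand: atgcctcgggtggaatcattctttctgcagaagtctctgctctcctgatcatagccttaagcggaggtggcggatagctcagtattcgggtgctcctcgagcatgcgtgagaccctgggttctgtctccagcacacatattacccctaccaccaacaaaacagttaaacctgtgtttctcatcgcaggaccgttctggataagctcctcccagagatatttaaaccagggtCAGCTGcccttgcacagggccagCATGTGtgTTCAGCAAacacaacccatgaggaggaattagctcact

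The Flt3 promoter had a GC content of 61% and 18 CpG dinucleotides, against a median of 56.3% and 13 over the 21238 protein-coding promoters of the table. Pan3, which encodes a subunit of a deadenylase that shortens mRNA tails, had 70.7% and 31. The promoter of Cdx2, a homeobox gene of the gut and trophectoderm, had 57.3% and 18. That of Urad, an enzyme gene of uric acid breakdown, had 51.3% and 8. The starts of Flt3, Pan3 and Cdx2 each lay in a region with a peak in all 8 lists, which held for 54.8% of all promoters. The Flt3 and Pan3 sequences lay wholly inside their regions. The Cdx2 region ended at 147307360, so the upstream end of the Cdx2 sequence lay outside it. The Urad start lay in no region, which held for 36.6%.

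On both strands 12 motifs were searched: AGATAA (for factors of the GATA family, found in 9.65% of all promoters), TGTGGT (RUNX, 15%), CGGAAG (ETS, 21.1%), GAGGAAG (PU.1, 13.6%), TTCNNNGAA (STAT, 7.69%), TTGCNNAA (C/EBP, 10.2%), TGANTCA (AP-1, 6.99%), CANNTG (E-box, 69%), CCAAT (38.2%), GGGCGG (GC box, 46.2%), TATAAA (the core of a TATA box, 12.6%) and TGATTNAT (HOX, 2.75%). In the Flt3 promoter the E-box was matched at 2 places, as CAGATG at base -245 from the start and as CACGTG at base 3. The other 11 motifs had no match in these 300 bases. The Pan3 promoter had no match at all. The Cdx2 promoter matched GAGGAAG, an E-box and, on the opposite strand, CCAAT, and the Urad promoter matched 2 E-boxes and, on the opposite strand, TTGCNNAA. No 2 of these matches overlapped. Of the Cdx2 matches, GAGGAAG and the E-box lay in the part of the sequence outside the open region. A match is a run of letters, and it was not tested whether a factor binds there.

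The 25 regions fell into 13 inside the Flt3 span, 4 upstream of the start and 8 beyond the 3′ end. A total of 13 regions (52%) had a peak in all 8 lists, compared with 34.1% of all regions of the series, and 3 (12%) had a peak in 1 list alone, compared with 18.9%. Inside the gene 5 of 13 regions were open in all lists, upstream 3 of 4, and beyond the 3′ end 5 of 8. Here and below, open means that the list has a peak in the region. A start is open in a list that has a peak in the region holding it, though the peak itself need not reach the start. The 13 regions open in all lists were 390 to 1800 bp long (median 1007 bp), and the other 12 were 237 to 754 bp long (median 343.5 bp). Union regions built from more lists tend to be longer, since each list can extend them.

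The depth of reads behind the lists is unknown, and the lists differed in length from 84080 peaks (set 2 Flt3-ITD) to 138514 (set 2 wild type). The median −log10 p of a list ranged from 15.8 in that same Flt3-ITD list to 38.5 in the set 2 wild type. A region counted as strong when its best peak was among the top 25% of the peaks of its own list by −log10 p. All values per peak are the authors', the fold enrichment is that of the summit, and they are used only to order peaks inside 1 list. With 1 list per group no test between genotypes was possible, and a missing peak can reflect a short list as well as closed chromatin. As a check of the tissue, the starts of all 8 progenitor markers with a known start (among them Kit, Cd34, Hlf and Mecom) were open in every list. Of the 3 erythroid markers (Klf1, Epor, Hba-a1) none was open in any. Over all promoters 54.8% were open in all 8 lists and 36.6% in none. By median rank among open starts, the progenitor markers ran from the top 14.5% (Cd34) to 97.8% (Cd27). The megakaryocyte marker Pf4 (68%) and the dendritic marker Siglech (65.3%) fell within that range. Of the other lists, 0 to 1 of 2 B cell, 0 to 1 of 3 T and NK cell, 1 to 3 of 4 neutrophil and monocyte, 2 to 3 of 3 megakaryocyte, 2 of 2 dendritic (one of them Flt3 itself) and 0 to 1 of 1 stromal marker starts were open, and their part in the results was not tested.

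Set 1 wild type, Flt3-ITD, Runx1-het and the double mutant Flt3-ITD/Runx1-het had 19, 18, 25 and 20 of the 25 regions of the locus. These are 76%, 72%, 100% and 80%, where the same lists had 59.1%, 65.4%, 67.8% and 66.7% of all regions. Set 2 wild type, NUP98-HOXD13, Flt3-ITD and NUP98-HOXD13/Flt3-ITD had 19, 17, 13 and 17, or 76%, 68%, 52% and 68%, where they had 72.4%, 63.9%, 46.9% and 61.7% of all regions. Within 50 kb the locus stood above the rate of the whole series in each list, and the list with the fewest peaks had the fewest regions here. With a margin of 10 kb it held 14 regions and stood above that rate in set 1 wild type (71.4%) and Runx1-het (100%) and below it in the other lists (35.7% to 71.4%). The open DNA of the stretch came to 14.2, 12.0, 15.1 and 13.3 kb in set 1 and to 14.4, 13.0, 8.93 and 12.5 kb in set 2. Strong regions numbered 12, 12, 14 and 11 in set 1 and 11, 11, 8 and 11 in set 2. That is 32% to 56% of the 25, while 15.5% to 25.1% of all regions were strong. With strong defined by fold enrichment these ranges came to 24% to 32% and 16.8% to 27.3%, and the set 1 Flt3-ITD list (24%) fell below its rate over all regions (24.8%). Of 21887 protein-coding genes, 1134 (5.18%) had as many regions in their span plus 50 kb as Flt3 or more, and the median was 10.

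**Figure D1:**
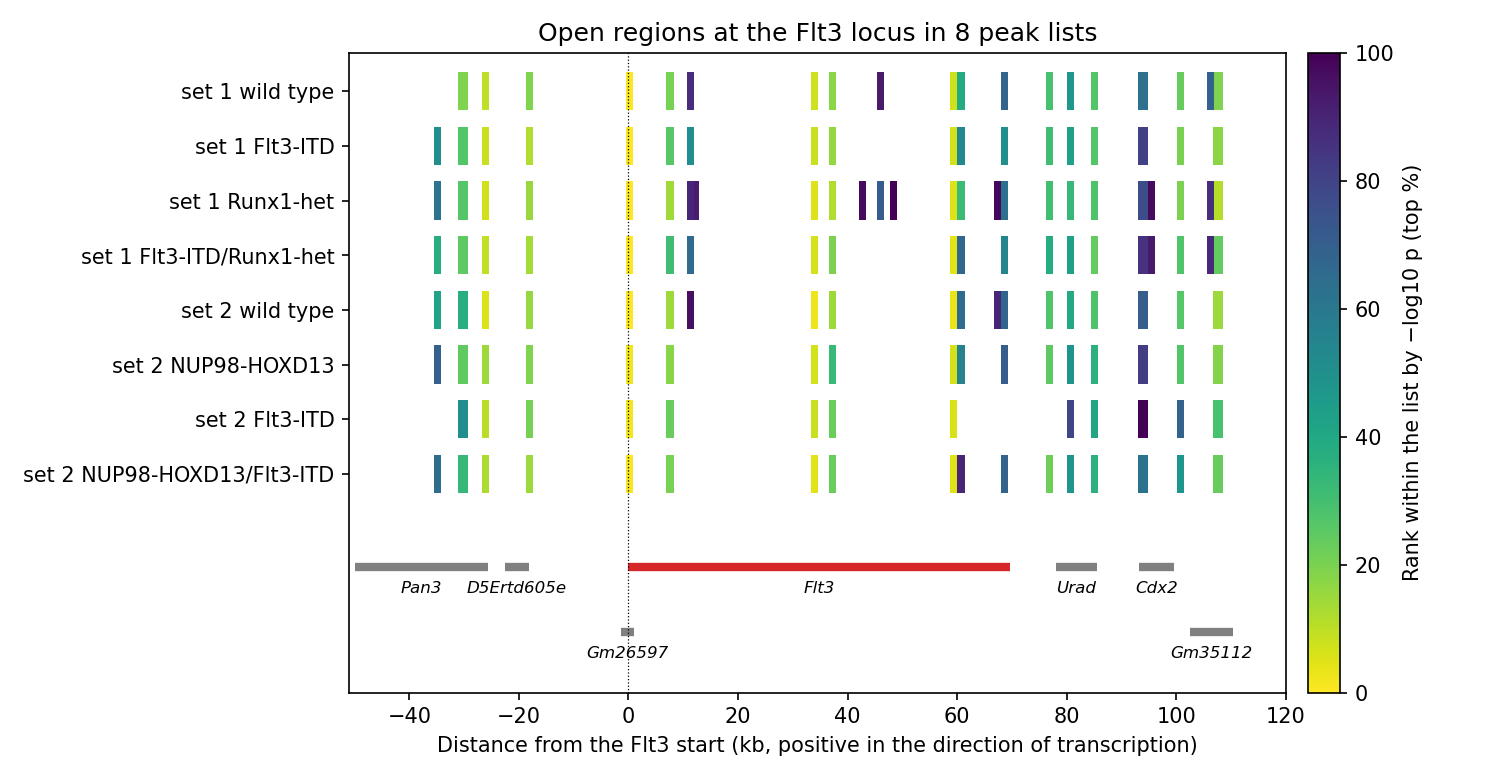
Open regions of the Flt3 locus in the 8 peak lists, plotted by distance from the Flt3 start in kb (positive in the direction of transcription). Each bar is a region with a peak in that list (regions under 1.3 kb are drawn 1.3 kb wide) and its colour is the rank among the list's regions by −log10 p in percent. The palest bars stand at the start, 34.0 kb and 59.3 kb in all 8 rows, and the set 1 Runx1-het row alone has all 25.

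The start of Flt3 was the highest-ranked region of the locus by −log10 p in all 8 lists. It covered chr5:147399913-147400755 and also held the start that the promoter table gives for Gm26597, a long noncoding RNA gene on the plus strand. The span of Gm26597 begins outside the region, at 147399554. The 2 starts inside the region cannot be told apart in these data. In set 1 the −log10 p of the region was 691 in wild type, 679 in Flt3-ITD, 722 in Runx1-het and 716 in Flt3-ITD/Runx1-het. In set 2 it was 1041 in wild type, 456 in NUP98-HOXD13, 160 in Flt3-ITD and 497 in NUP98-HOXD13/Flt3-ITD. These values placed it in the top 0.603%, 0.669%, 0.723% and 0.487% of the regions of the set 1 lists, and in the top 0.702%, 2.17%, 1.86% and 1.07% of those of set 2, in the same order of genotypes. The fold enrichment was 18.7, 21.8, 20.3 and 24.7 in set 1 and 20.5, 19.1, 18.9 and 18.6 in set 2. Its summit stayed within 27 bp over the lists, about 0.1 kb into the gene. No list lacked the peak, and by −log10 p no list put another region of the locus above it.

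In the paragraphs that follow, the 4 values of set 1 are given in the order wild type, Flt3-ITD, Runx1-het and the double mutant Flt3-ITD/Runx1-het, and the 4 of set 2 in the order wild type, NUP98-HOXD13, Flt3-ITD and NUP98-HOXD13/Flt3-ITD. The gene table gives no exons, so it is not known here whether a region inside a gene is exonic or intronic.

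Inside the gene 2 regions came next by −log10 p. The region 59.3 kb downstream of the start (chr5:147340661-147341667), in the last part of the Flt3 span, had a −log10 p of 279.9, 287, 354 and 359.8 in set 1. In set 2 it had 600.0, 269, 102 and 309. The region 34.0 kb downstream (chr5:147366076-147366996) had 266, 261, 350.4 and 307 in set 1 and 695, 261, 85.3 and 322 in set 2. Both were strong in all 8 lists. The one at 59.3 kb ranked second of the locus in 6 lists, and in the set 2 wild type and NUP98-HOXD13/Flt3-ITD lists the one at 34.0 kb took that place. Their median ranks over the lists were the top 5.55% and 6.66% of all open regions. By fold enrichment the order differed. The place of the 59.3 kb region in the locus was then 3, 5, 3 and 3 in set 1 and 1, 2, 2 and 2 in set 2. In the set 2 wild type list it (21.1) stood above the start (20.5). The 34.0 kb region was at 6, 6, 6 and 6 in set 1 and 5, 5, 5 and 5 in set 2. The regions 18.1 kb upstream and 107.7 kb downstream, described below, stood above it by fold enrichment in each list.

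A further 2 regions inside the gene were strong in all 8 lists. The one 37.3 kb downstream (chr5:147362932-147363488) had a −log10 p of 153, 166, 212 and 139.7 in set 1 and 244, 67.2, 44.1 and 105 in set 2. Its place among the regions of the locus by −log10 p was 5, 6, 6 and 6 in set 1 and 5, 11, 7 and 8 in set 2. Its fold enrichment was 9.41, 10.2, 10.6 and 9.76 in set 1 and 8.94, 5.90, 8.64 and 7.25 in set 2, lower than that of the start, 59.3 kb and 34.0 kb regions in each list. The one 7.6 kb downstream (chr5:147392382-147393413) had a −log10 p of 133, 111, 187 and 90.7 in set 1 and 243, 126, 44.2 and 118 in set 2. Its place in the locus was 9, 9, 7 and 11 in set 1 and 6, 5, 6 and 6 in set 2, and its fold enrichment was 11.5, 10.9, 13.7 and 9.59 in set 1 and 15.1, 13.2, 12.3 and 11.7 in set 2. Each list has its own background and length, so the differences in these values between genotypes were not tested.

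Upstream of the start 2 regions were strong in all 8 lists. The region 18.1 kb upstream (chr5:147418033-147419129) reached into D5Ertd605e, a long noncoding RNA gene, and had a −log10 p of 138.9, 208, 172 and 189 in set 1 and 230.3, 117, 47.2 and 157 in set 2. Its fold enrichment was 15.2, 20.2, 16.9 and 20.8 in set 1 and 18.9, 14.4, 15.9 and 15.5 in set 2. The summits of this region lay at 147418575 to 147418595, next to the edge of D5Ertd605e at 147418620. No strand was given for D5Ertd605e, so the region may belong to the start of that gene, which was not tested. The region 26.1 kb upstream (chr5:147426359-147426802) lies just inside the 5′ edge of the Pan3 span, which begins at 147426208 on the plus strand. The promoter table gives another start for Pan3, at 147430156, so the region may belong to a start of Pan3, which was not tested. The region 26.1 kb upstream had a −log10 p of 231, 259, 296 and 241 in set 1 and 485, 149.5, 76.8 and 180.5 in set 2. By −log10 p it was the fourth region of the locus in all 8 lists. Its fold enrichment was 9.68, 11.1, 11.8 and 11.4 in set 1 and 14.0, 9.32, 11.4 and 9.66 in set 2. By fold enrichment its place in the locus was 10, 10, 9 and 9 in set 1 and 8, 9, 7 and 8 in set 2.

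At the far end, the region 107.7 kb downstream (chr5:147291957-147293671), inside the long noncoding RNA gene Gm35112 and beyond Cdx2, was also strong in all 8 lists. Its −log10 p was 138.9, 157, 221 and 115 in set 1 and 237, 121, 36.0 and 104 in set 2. By fold enrichment it was the top region of the locus in the Runx1-het list (24.1, against 20.3 for the start of Flt3). It lies nearer to Cdx2 and Urad than to Flt3, and which gene it acts on was not measured.

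**Figure D2:**
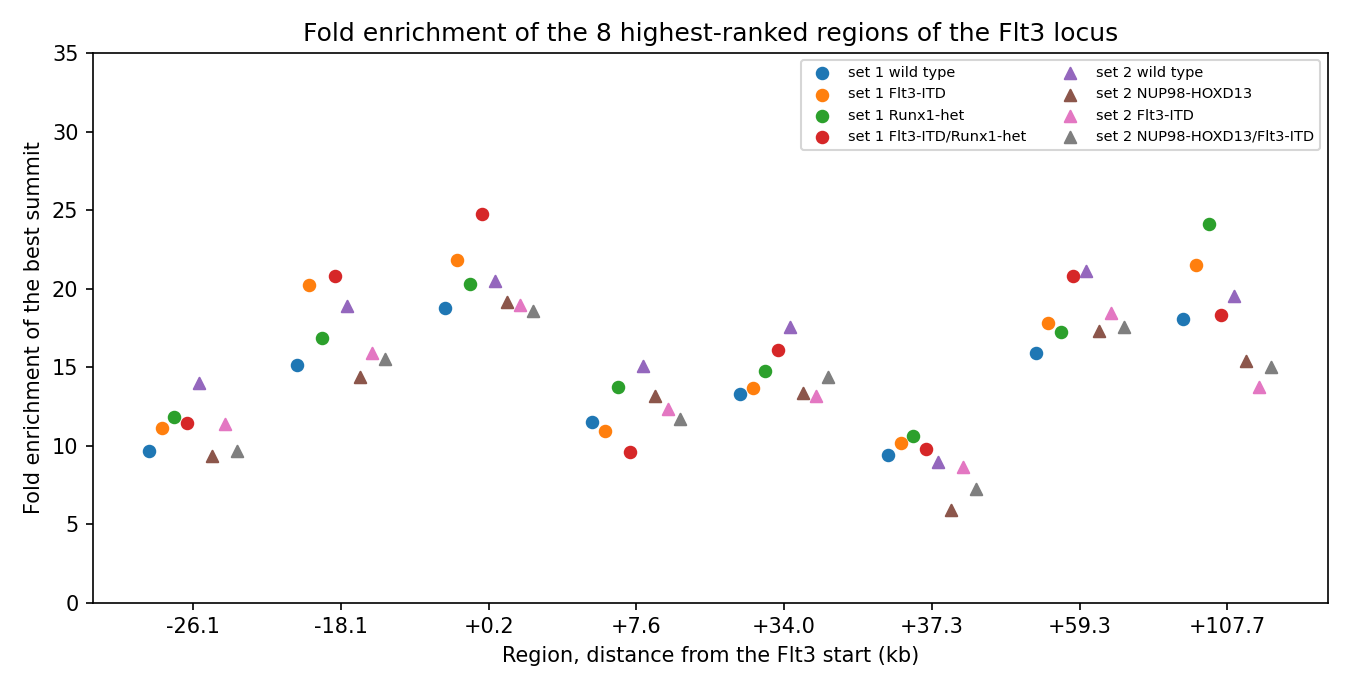
Fold enrichment of the best summit (vertical axis, a ratio given by the authors) for the 8 regions of the Flt3 locus with the highest median rank, by distance from the Flt3 start in kb. Circles are set 1 lists and triangles set 2 lists, 1 point per list. The start of Flt3 lies between 18.6 and 24.7 in all lists, and the region at 37.3 kb between 5.90 and 10.6.

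The other 5 regions open in all lists were of lower rank. The start of Cdx2, a gene not known for a role in normal blood progenitors, lay in a region (chr5:147305561-147307360) that was never strong, with a −log10 p of 35.3, 23.2, 22.8 and 18.4 in set 1 and 32.6, 14.8, 4.24 and 30.2 in set 2. It was the longest region of the locus, at 1800 bp. The start of Pan3 (chr5:147429782-147431547) was strong in 6 lists, with a highest −log10 p of 139 in set 1 wild type and a lowest of 20.8 in set 2 Flt3-ITD. The regions at 100.8 kb, between Cdx2 and Gm35112, and at 85.2 kb, at the 3′ end of Urad, were each strong in 6 lists. The one at 80.7 kb, inside Urad, was strong in 1.

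Of the 12 regions that were not open in all lists, 3 were missing from the set 2 Flt3-ITD list alone (12%, against 5.6% of all regions). The first, 76.9 kb downstream and beyond the 3′ end of Flt3 (chr5:147323223-147323976), was strong in 6 of the 7 lists that had it. Its −log10 p was 95.2, 95.4, 92.9 and 71.1 in set 1, and 134, 91.3 and 109 in set 2 wild type, NUP98-HOXD13 and NUP98-HOXD13/Flt3-ITD. The second, 68.7 kb downstream near the 3′ end of the gene, had 21.0 to 52.4 and the third, 60.7 kb downstream, had 13.1 to 88.5 over the same lists.

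The region 11.4 kb downstream of the start (chr5:147388738-147389431) was open in all 4 set 1 lists and the set 2 wild type and in none of the 3 set 2 mutants. Its −log10 p was 16.9, 51.7, 14.5 and 32.4 in set 1 and 11.9 in the set 2 wild type. In the set 2 wild type it ranked in the top 96.3%, close to the end of the list. Regions with this same pattern over the lists made up 0.598% of the series. When each list was cut to the same number of peaks, it was open in set 1 wild type, Flt3-ITD and Flt3-ITD/Runx1-het alone, so the Runx1-het and set 2 wild type peaks were lost as well.

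The region 34.9 kb upstream of the start, inside the Pan3 span (chr5:147435190-147435645), was open in 6 lists and missing from set 1 wild type and set 2 Flt3-ITD. Its −log10 p was 51.3, 35.5 and 71.3 in the 3 mutants of set 1, and 80.5, 21.5 and 28.6 in set 2 wild type, NUP98-HOXD13 and NUP98-HOXD13/Flt3-ITD. This pattern was that of 1.01% of all regions. With the same number of peaks in each list (84080), the region kept its peak in these 6 lists. A cut only removes peaks, so it could not bring the region back in the 2 lists that lacked it. Against the wild type of its set, it was gained with Flt3-ITD in set 1 and missing with Flt3-ITD in set 2.

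The remaining 7 variable regions were weak wherever they were found. The regions at 48.3, 42.7 and 12.2 kb, all inside Flt3, were peaks of the Runx1-het list alone, with a −log10 p of 6.65 to 12.9. The region at 95.4 kb, inside Cdx2, was open in Runx1-het (10.1) and the double mutant with Flt3-ITD (13.3) and nowhere else, a pattern of 0.529% of all regions. The region at 67.5 kb was open in Runx1-het (9.15) and the set 2 wild type (17.0). The region at 46.0 kb was open in set 1 wild type (13.9) and Runx1-het (27.2) and in neither list with Flt3-ITD of that set, a pattern that 1.78% of all regions showed within set 1. The region at 106.2 kb was open in set 1 wild type (29.6), Runx1-het (16.5) and Flt3-ITD/Runx1-het (15.9).

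The question the design puts to this locus is whether a mutated receptor, a lost copy of Runx1 or the NUP98-HOXD13 fusion goes with other open regions around the receptor gene. Against the wild type of the set, a gain is a region open in the mutant list and not in the wild type list, and a loss the reverse. No strong region was gained at the locus in any of the 6 mutant lists, and 1 was lost in 1 list. The set 1 Flt3-ITD list gained 1 region (34.9 kb upstream) of 25, or 4%, while 13.6% of all regions were gained, and it lost 2 (106.2 and 46.0 kb), or 8%, while 7.35% of all were lost. The Flt3-ITD/Runx1-het list gained 2 (34.9 kb upstream and 95.4 kb downstream) against 15.6% of all regions, and lost 1 (46.0 kb) against 7.94%. In both lists the gains were below the share of the whole series. The losses depended on the definition of an open region: with at least 50% of the region covered by peaks, set 1 Flt3-ITD lost 4, or 16%, against 8.4% of all regions.

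The Runx1-het list gained 6 regions, or 24%, while 15% of all regions were gained, and lost 0, while 6.31% of all were lost. Of these 6, the 5 at 95.4, 67.5, 48.3, 42.7 and 12.2 kb ranked between the top 92.1% and 99.6% of that list, and the one 34.9 kb upstream ranked at 62.0%. With the same number of peaks in each list, the locus held 20 regions and Runx1-het gained 2 (9.68% of all regions) and lost 2 (7.55%). With peaks of −log10 p of at least 10 it gained 4 of 24 (16.7%, background 14.5%). It gained 6 of 25 (24%, background 16.2%) with 50% coverage and 4 of 14 (28.6%, background 15%) with a margin of 10 kb. Against the set 2 wild type it gained 6 (24%, background 9.39%), and that comparison also holds whatever separates the sets. In a union without the set 2 Flt3-ITD list, Runx1-het had 25 of 25 regions, and with a margin of 10 kb it had 14 of 14. Under other settings it lacked some: it had 23 of 24 regions with peaks of −log10 p of at least 10, and 23 of 25 with at least 50% of the region covered. With the same number of peaks in each list it had 18 of 20, as many as set 1 wild type and Flt3-ITD. Of 2678 protein-coding genes with at least 20 regions in span plus 50 kb, the Runx1-het list had every region for 7 (0.261%). The Flt3-ITD/Runx1-het list also had every region for 7 and the set 2 wild type for 10, so this holds for other lists elsewhere.

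In set 2 the 3 mutant lists gained 0 regions at the locus, where NUP98-HOXD13, Flt3-ITD and NUP98-HOXD13/Flt3-ITD gained 8.85%, 3.29% and 8.09% of all regions. NUP98-HOXD13 lost 2 (67.5 and 11.4 kb) against 17.3% of all, and NUP98-HOXD13/Flt3-ITD lost the same 2 against 18.8%. Flt3-ITD lost 6 (76.9, 68.7, 67.5, 60.7 and 11.4 kb downstream and 34.9 kb upstream), or 24%, against 28.7%. One of these, at 76.9 kb, was strong in the wild type, a loss that 0.899% of all regions showed. These shares were below those of the whole series for the 3 lists, and the direction of the losses turned under some other settings but not all. For Flt3-ITD it held with a −log10 p of at least 10 (29.2% against 35.5%) and with 50% coverage (28% against 32.7%). NUP98-HOXD13 and the double mutant stayed below in every setting that used the set 2 wild type. For Flt3-ITD the loss was 4 of 20 regions (20%) against 18.8% of all with the same number of peaks in each list, and 5 of 14 (35.7%) against 28.7% with a margin of 10 kb. Against the set 1 wild type, Flt3-ITD lost 6 (24%, background 18.5%), NUP98-HOXD13 lost 3 (12%, background 9.8%) and the double mutant lost 3 (12%, background 10.6%). Those comparisons also hold whatever separates the sets.

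Strong gains across the series were 0.111%, 0.068% and 0.155% of all regions in Flt3-ITD, Runx1-het and the double mutant Flt3-ITD/Runx1-het of set 1. In NUP98-HOXD13, Flt3-ITD and NUP98-HOXD13/Flt3-ITD of set 2 they were 0.0787%, 0.0156% and 0.0779%. A share of that size of 25 regions is under 1 region, so the count of 0 strong gains at the locus is what these backgrounds give. Strong losses were 0.00983%, 0.00328% and 0.0262% in set 1, and 0.275% and 0.414% in the NUP98-HOXD13 and NUP98-HOXD13/Flt3-ITD lists.

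**Figure D3:**
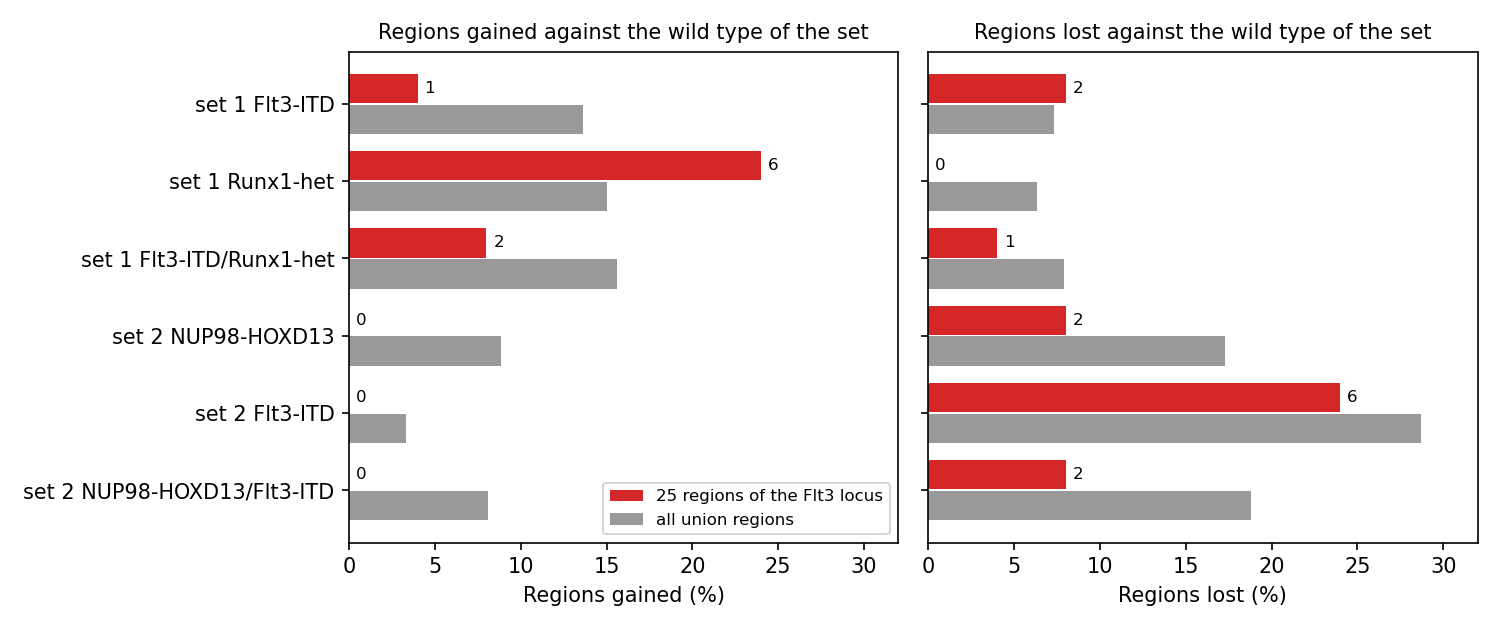
Share of regions gained (left) and lost (right) in each mutant list against the wild type list of its set, in percent. Red bars are the 25 regions of the Flt3 locus, with their number beside them, and grey bars all 122020 regions. The Runx1-het list has 6 gains and the set 2 Flt3-ITD list 6 losses, next to grey bars of 15% and 28.7%.

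Double mutants were set beside their single mutants. Flt3-ITD/Runx1-het had 2 regions that Flt3-ITD of set 1 lacked (106.2 and 95.4 kb, against 11.4% of all regions) and lacked 0 that it had (10%). Against Runx1-het it had 0 new regions (11.4%) and lacked 5, at 67.5, 48.3, 46.0, 42.7 and 12.2 kb (12.4%). All 5 lie inside the Flt3 span, as do 13 of the 25 regions and 8 of the 12 not open in all lists. In the Runx1-het list these 5 ranked between the top 71.3% and 99.6%. With the same number of peaks in each list, Flt3-ITD/Runx1-het lacked 2 of 20 regions (10%, background 9.32%). With a −log10 p of at least 10 it lacked 3 of 24 (12.5%, background 11.8%). With 50% coverage it lacked 6 of 25 (24%, background 14.7%), and with a margin of 10 kb 5 of 14 (35.7%, background 12.4%). NUP98-HOXD13/Flt3-ITD and NUP98-HOXD13 had the same 17 regions, with 0 gained (9.89%) and 0 lost (12.2%). Against Flt3-ITD of set 2 the double mutant had 4 more, at 76.9, 68.7 and 60.7 kb downstream and 34.9 kb upstream (21.3%), and lacked 0 (6.52%). The one at 76.9 kb was strong in the double mutant (0.86%).

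Lists of the same genotype from the 2 sets also differed. The set 2 wild type had 2 regions that the set 1 wild type lacked (67.5 kb downstream and 34.9 kb upstream, against 18.9% of all regions) and lacked 2 that it had (106.2 and 46.0 kb, 5.63%). The set 2 Flt3-ITD list had 0 that the set 1 Flt3-ITD list lacked (4.4%) and lacked 5 (22.9%), of which the one at 76.9 kb was strong (0.589%). These pairs also hold whatever separates the sets. Against the 0 to 5 regions by which lists of equal genotype differed in 1 direction, mutant lists differed from the wild type of their set by 0 to 6.

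Other genes of the pathway were taken from a list of 39, with the regions within 2 kb of their spans. These were 350 regions, of which 129 (36.9%) were open in all 8 lists, against 34.1% of all regions. Of the 31 genes whose start is in the promoter table, 25 had it open in all 8 lists, 3 in some and 3 in none. Over all protein-coding promoters, 54.8% were open in all 8 lists and 36.6% in none. The counts of open starts given below stand beside the same shares. For 8 genes, among them Csf1r, Pdgfrb, Gab2 and Spi1, no start was used here.

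The ligand gene Flt3l was open at its start in all 8 lists, with a −log10 p of 46.5, 57.1, 74.0 and 82.8 in set 1 and 101, 78.0, 19.0 and 103 in set 2. This put it between the top 70.2% and 88.5% of open starts, far below Flt3, which ranked in the top 3.39%, 3.93%, 4.5% and 3.11% in set 1 and 4.29%, 12.7%, 7.7% and 6.33% in set 2. By fold enrichment Flt3 ranked lower, between the top 12.6% and 31.4% of open starts. Its high −log10 p and its moderate fold enrichment are different measures of the same peaks.

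Among the receptor relatives, Kit, the receptor for stem cell factor, was open at its start in all lists. Its −log10 p was 219.6, 217, 238 and 232 in set 1 and 360.4, 217, 47.5 and 244 in set 2, and its fold enrichment was 12.5, 13.4, 13.2 and 15.0 in set 1 and 14.7, 13.3, 12.0 and 13.2 in set 2. Flt3 stood above Kit in each list by both measures. Of the receptors for vascular endothelial growth factors, Flt4 was open in 8 lists, with a −log10 p of 13.5 to 70.5. Kdr was open in 7, with 19.8 to 48.1, and missing from set 2 Flt3-ITD. Flt1 was open in 5, with 12.9 to 21.4, and missing from the 3 lists made from Flt3-ITD alone or with Runx1-het. In the 5 lists that had it, the Flt1 start ranked between the top 95.4% and 99.1% of open starts, close to the end. Whether its absence goes with the genotype was not tested. Flt1 is near Flt3 on the same chromosome and its start was open in NUP98-HOXD13/Flt3-ITD. The start of Pdgfra was open in none, while 1 of the 7 regions within 2 kb of its span was open in all 8 lists.

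**Figure D4:**
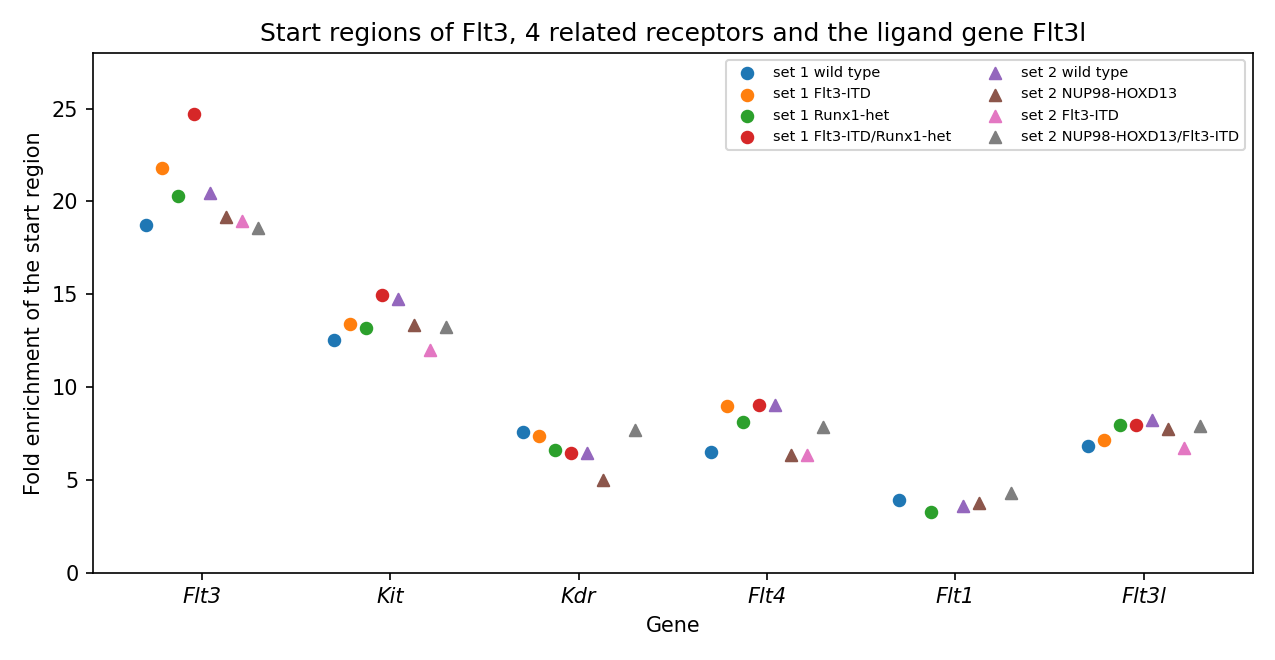
Fold enrichment at the start region (vertical axis, a ratio given by the authors) for Flt3, 4 related receptors and the ligand gene Flt3l. Circles are set 1 lists and triangles set 2 lists, and a list with no peak in the region of a start has no point. The values of Flt3 run from 18.6 to 24.7 and those of Kit from 12.0 to 15.0.

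All 12 adaptor and signalling genes with a known start were open there in all 8 lists. Among them were Grb2, Stat3 and Stat5a. The start of Stat5a, one of the genes for the STAT5 factors that the mutated receptor activates, had a −log10 p of 352, 266, 425 and 348 in set 1 and 585, 305, 98.2 and 409 in set 2. Of the 7 negative regulators with a known start, 6 were open in all lists. Cblb, which encodes a ubiquitin ligase that acts on receptor kinases, was higher than Flt3 by −log10 p in each list, with 859.7, 757, 919 and 749 in set 1 and 1384, 846, 258 and 561 in set 2. By fold enrichment Cblb was below Flt3 in 4 of the 8 lists: set 1 Flt3-ITD (19.3 and 21.8), Runx1-het (20.1 and 20.3), the double mutant of that set (20.4 and 24.7) and set 2 NUP98-HOXD13/Flt3-ITD (17.1 and 18.6). Socs3, a feedback inhibitor of JAK and STAT signalling, had 98.3, 131, 143 and 230.4 in set 1 and 57.5, 31.8, 38.0 and 119 in set 2. The start of Ptpn6, a phosphatase gene, was missing from the set 2 wild type alone. In the 7 lists that had it, it ranked between the top 90.5% and 98.6% of open starts, close to the end. Whether its absence goes with the genotype was not tested.

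Of the 6 transcription factors with a known start, 4 were open in all lists and 2, Hoxa9 and Pax5, in none. Meis1, a homeobox partner of HOX proteins, had a −log10 p of 334, 324, 394 and 414 in set 1 and 502, 213, 100.5 and 213 in set 2. It ranked between the top 18.4% and 42.8% of open starts. Runx1 had 82.1, 118, 82.8 and 148 in set 1 and 103, 101, 38.7 and 98.7 in set 2, and Myb, a progenitor factor, had 17.5 to 129. The start of Runx1 was open in the Runx1-het lists also. A lost copy need not remove the peak, and where the allele is altered was not given in the sources used here.

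Over the 350 regions of these genes, gains against the wild type of the set were 56 in set 1 Flt3-ITD (16%, background 13.6%), 50 in Runx1-het (14.3%, background 15%) and 72 in Flt3-ITD/Runx1-het (20.6%, background 15.6%). Losses in the same lists were 27 (7.71%), 18 (5.14%) and 29 (8.29%), on backgrounds of 7.35%, 6.31% and 7.94%. In set 2, NUP98-HOXD13, Flt3-ITD and NUP98-HOXD13/Flt3-ITD gained 32 (9.14%), 10 (2.86%) and 31 (8.86%) and lost 54 (15.4%), 92 (26.3%) and 51 (14.6%). The backgrounds were 8.85%, 3.29% and 8.09% for gains and 17.3%, 28.7% and 18.8% for losses. The share farthest from its background was that of the gains in Flt3-ITD/Runx1-het. Of strong changes there were 2 among the 350 regions. One region of Flt3l was lost in set 2 Flt3-ITD (0.286%, background 0.899%), and 1 of a transcription factor gene was gained in NUP98-HOXD13/Flt3-ITD (0.286%, background 0.0779%).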

How the data were processed

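The members and gene lists were chosen with earlier results of these data known. The 2 samples of each group point to the same peak list, per the labels. Bowtie2, MACS2 and the builds mm10 and GRCm38 were used per the submitters' processing notes, which give no versions. Tn5 tagmentation was that of a published protocol, per the labels' protocols. The caller's thresholds, any shift of reads and any removal of duplicates were not given in the sources used here. Read depth is unknown, so no interval is given.

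The values the authors deposited per peak were the fold enrichment at the summit, a ratio, and a −log10 p, which were used, and a −log10 q, which was not. The deposited score was left aside, since what it measures was not given in the sources used here. The deposited summit offset gave summit positions.

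Peaks on chromosomes 1 to 19, X and Y were merged at 1 bp of overlap with Python 3.11.15 and pandas 2.3.3, and presence, best values and ranks were read per list. Merging and calls were tested on simulated lists. Gene spans came from the GRCm38.p6 gene table, which gives no exons, and starts from its promoter table. Regions given with full values were, by rule, the 8 of highest median rank, those gained or lost while strong, and the start of the gene. Likeness compared 11835 genes with at least 10 regions. Alternatives were a −log10 p of at least 10, 50% coverage, equal numbers of peaks, a union without the shortest list, a 10 kb margin, other definitions of strong and the wild type of the other set.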

Additional observations from a re-analysis of the deposited data

Results flagged for a closer look

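The region 34.9 kb upstream of the Flt3 start stood out because Flt3-ITD and wild type differed in opposite directions in the 2 sets. In set 1 it had a −log10 p of 51.3 in Flt3-ITD and no peak in wild type, and in set 2 it had 80.5 in wild type and no peak in Flt3-ITD. With 1 list per group the difference between the sets was not tested. The set 2 Flt3-ITD list was the shortest of the 8, with 84080 peaks, and the set 1 wild type list the shortest of its set, with 113325. With 84080 peaks in each list, the region kept its peak in the other 6 lists. A cut only removes peaks, so it could not bring the region back in these 2 lists and does not test the effect of their length.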

How the results depend on the processing

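No paired analysis was possible because the 2 samples of a group share 1 peak list, and for the same reason no replicate could be left out. Counts are of regions gained or lost at the locus in a list against the wild type of its set unless another list is named, with the share of all regions in brackets, and a value stayed close if it was within 1.5 times the one in the report. With peaks of −log10 p of at least 10, Flt3-ITD/Runx1-het lacked 3 regions of Runx1-het (11.8%), and 28 of 29 values stayed close, among them 4 gains of 24 regions in Runx1-het (14.5%). With at least 50% of a region covered, losses were 4 in set 1 Flt3-ITD (8.4%), 2 in Runx1-het (7.64%) and 2 in Flt3-ITD/Runx1-het (9.9%), which gained 4 (12.2%) and lost 1 (12.4%) against Flt3-ITD and gained 2 (12.7%) against Runx1-het. With 84080 peaks in each list, set 1 Flt3-ITD lost 1 (8.08%), Runx1-het gained 2 (9.68%) and lost 2 (7.55%), Flt3-ITD/Runx1-het gained 1 (12.4%) and lost 2 (9.07%), NUP98-HOXD13 lost 0 (11.7%) and NUP98-HOXD13/Flt3-ITD lost 1 (12.7%). At that length Flt3-ITD/Runx1-het gained 0 (9.29%) and lost 1 (8.53%) against Flt3-ITD and gained 1 (10.5%) and lost 2 (9.32%) against Runx1-het, and NUP98-HOXD13/Flt3-ITD lost 1 (9.78%) against NUP98-HOXD13. Fewer peaks leave fewer regions to count. Without the set 2 Flt3-ITD list, 0 of 24 values moved. With a margin of 10 kb the locus held 14 regions, of which set 1 had 10, 9, 14 and 9 and set 2 had 10, 8, 5 and 8, in the order used in the report. In that window set 1 Flt3-ITD gained 0 (13.6%) and lost 1 (7.35%), and Flt3-ITD/Runx1-het gained 0 against wild type (15.6%) and against Flt3-ITD (11.4%). Strong regions by fold enrichment numbered 6, 6, 7 and 7 in set 1, and 8, 8, 6 and 8 in set 2. As the top 10% they numbered 4, 5, 7 and 5 in set 1 and 4, 3, 4 and 5 in set 2. Against the wild type of the other set, set 1 Flt3-ITD gained 0 (8.54%) and lost 1 (15.5%), NUP98-HOXD13 gained 1 (14.6%) and NUP98-HOXD13/Flt3-ITD gained 1 (13.1%). Apart from the fewer peaks, narrower window and stricter definitions of the alternatives themselves, the cause was not tested. Read depth and the spread between samples are unknown and limit what a missing peak shows.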

Other observations

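By the share of a window's regions open in each list, divided by that list's share of all regions, the genes most like Flt3 over the 8 lists were Zfp503, Arid1a, Rgs13, Rtn4rl1 and Fam210a. Their root mean square differences from Flt3 were 0.0646, 0.0679, 0.0695, 0.0806 and 0.0806, where the median over 11835 genes was 0.237. Zfp503 had 11, 11, 14 and 13 of its 15 regions in set 1 and 12, 11, 8 and 10 in set 2, in the order of genotypes used in the report. Arid1a, which encodes a subunit of a chromatin remodelling complex, had 12, 12, 15 and 13 of 16 in set 1 and 13, 12, 9 and 11 in set 2. With 10 kb on either side of each gene in place of 50 kb, 0 of these 5 genes was among the 5 most alike. Likeness over 8 lists that share their lengths is a description only.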
